A study of Homo sapiens with 15 samples.

Results

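The 47 genes described here are interferon-stimulated genes, a set listed by symbol for their known induction by interferon. The rule that finds them uses no measured value, but the list was drawn up with earlier results of these data known. All 47 symbols were found among the 60675 genes of the deposited table, and 43 of them held enough reads to be tested. They were measured in HT1080 cells, a human fibrosarcoma line, in 5 groups with 3 libraries each. The cells called 6CD1m carry the missense mutation HDAC6H216A, which inactivates the first catalytic domain of endogenous KDAC6 (HDAC6), and those called 6CD2m carry HDAC6H611A, which inactivates the second. The cells called 8CDm carry HDAC8H143A and express inactive KDAC8. Both KDAC6 mutants had 2 days of Tubastatin A at 1 μM before harvest, and 8CDm cells had 2 days of PCI-34051 at 5 μM. WT cells received either inhibitor at the same dose for 14 days. Every group was therefore treated, untreated cells are not analysed here, and in a comparison of a mutant with WT cells the line and the time of treatment changed together, so their parts cannot be told apart. Because the mutations are missense changes, the reads on HDAC6 and HDAC8 do not check the labels. HDAC6 was nonetheless lower in 6CD1m cells (14.2, 12.6 and 12.4 CPM, scaled counts) than in WT cells on the same inhibitor (28.1, 23.4 and 25.5 CPM, log2 -0.97 ± 0.12, edgeR adjusted p = 0.00024) and than in 6CD2m cells (22.9, 25.1 and 25.1 CPM, edgeR adjusted p = 5.4e-05). It was also lower in 8CDm cells than in WT cells on PCI-34051 (log2 -0.66 ± 0.12, edgeR adjusted p = 0.00064), and HDAC8 was called between no pair of groups. Whether each mutant line came from 1 clone is not given in the sources used here.

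Interferons are secreted proteins that cells release when sensors of foreign or misplaced nucleic acid are engaged. Type I interferons bind the receptor chains IFNAR1 and IFNAR2, the kinases JAK1 and TYK2 are activated, and phosphorylated STAT2 joins IRF9 in the complex ISGF3. This complex binds the interferon-stimulated response element in promoters, whereas the gamma-activated site serves the response to interferon gamma. The induced genes block virus entry, degrade or sequester viral RNA, modify proteins with the ubiquitin-like ISG15, and feed back on the pathway itself. Many of them are also expressed at a low basal level without added interferon, and the labels name no added interferon.

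The deposited counts on genes summed to 10932455 to 19983710 per library, and were lowest in 6CD1m cells (10932455 to 14068244). The summed level of 8 mesenchymal markers lay between 6090 and 9250 CPM (counts scaled to a common library size, after scaling by TMM), although S100A4 never passed 0.837 CPM. Among 6 immune markers PTPRC, CD3E and CLEC4C never passed 3 reads, and nearly all of the summed 5.69 to 17.3 CPM came from ITGAX. EPCAM and CDH1 held at most 2 reads in any library, while KRT8 and KRT18 were well expressed. Of 2 endothelial markers PECAM1 held at most 9 reads, and CDH5 differed between the groups. CDH5 held 25 to 31 reads in 6CD2m and 39 to 53 in 8CDm libraries, 2 to 4 in 6CD1m, 3 in each WT library on Tubastatin A and 0 in each on PCI-34051. It was called higher in 6CD2m than in WT cells (edgeR adjusted p = 5e-05) and than in 6CD1m cells (edgeR adjusted p = 0.00014), and in 8CDm than in WT cells (edgeR adjusted p = 6.5e-07). ITGAX had means of 16.5 CPM in 6CD2m, 14.2 CPM in WT on Tubastatin A, 10.0 CPM in 6CD1m, 7.48 CPM in WT on PCI-34051 and 6.14 CPM in 8CDm cells. It was called higher in 6CD2m than in 6CD1m cells (edgeR adjusted p = 0.00057) and than in 8CDm cells (edgeR adjusted p = 1.2e-06). The part of these markers in the results was not tested. Libraries within a group differed by the GC content of genes. The correlation across 19381 genes of a library's deviation from its group with GC content was highest in 6CD1m replicate 1 (Spearman's rho 0.49) and lowest in 6CD1m replicate 3 (-0.48). In 6CD1m replicate 1, 30 of the 43 tested genes had their lowest value of the group, beside 43.2% of all genes. WT replicate 1 held the highest value of its group for 29 of 43 genes on Tubastatin A (41.3% of all genes) and for 30 of 43 on PCI-34051 (44.2%), with rho of -0.39 and -0.44. The part of this in the results was not tested beyond the fits with GC offsets given below.

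The promoters of these genes were read from RefSeq windows on GRCh38.p14 that run from 250 bases before to 50 after the start site. Windows were found for 38 of the 47 genes, and not for DDX58, IFIT2, IFITM2, IRF7, MX2, OAS2, OASL, TRIM22 and USP18. The letters GAAANNGAAA on either strand, the core of the response element, were present in 24 of 38 windows (63.2%), beside 3.65% of the windows of 27305 genes. The letters TTCNNNGAA of the gamma-activated site, which read the same on both strands, were present in 10 of 38 (26.3%), beside 7.88%. Of the 11 matches to the latter, 4 overlapped a match to the former. Of these, 6 windows are printed below in lower case, each with its match to the response element in capitals, because their genes carry the differences described further on. The first 5 belong to genes that were higher in 6CD2m cells than in at least 1 other group, and the last belongs to ISG20, which was lower there.
IFI27 (chr14:94110486-94110785, + strand): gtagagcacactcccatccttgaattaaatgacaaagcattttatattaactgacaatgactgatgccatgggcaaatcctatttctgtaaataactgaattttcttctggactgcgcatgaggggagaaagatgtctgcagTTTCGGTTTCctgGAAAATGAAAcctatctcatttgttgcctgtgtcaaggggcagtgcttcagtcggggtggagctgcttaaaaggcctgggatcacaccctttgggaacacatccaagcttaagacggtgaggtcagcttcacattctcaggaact
IFITM1 (chr11:313790-314089, + strand): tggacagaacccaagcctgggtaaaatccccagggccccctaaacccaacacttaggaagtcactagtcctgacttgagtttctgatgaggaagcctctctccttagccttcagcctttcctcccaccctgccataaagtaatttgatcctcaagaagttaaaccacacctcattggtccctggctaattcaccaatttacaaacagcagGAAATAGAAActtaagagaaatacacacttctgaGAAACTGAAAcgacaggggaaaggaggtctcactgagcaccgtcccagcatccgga
MX1 (chr21:41420308-41420607, + strand): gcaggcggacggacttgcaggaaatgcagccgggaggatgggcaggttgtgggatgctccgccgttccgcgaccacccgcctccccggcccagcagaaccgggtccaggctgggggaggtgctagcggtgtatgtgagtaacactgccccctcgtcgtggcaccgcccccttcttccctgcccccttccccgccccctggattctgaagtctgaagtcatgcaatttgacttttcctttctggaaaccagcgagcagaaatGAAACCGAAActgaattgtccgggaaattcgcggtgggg
HERC5 (chr4:88456869-88457168, + strand): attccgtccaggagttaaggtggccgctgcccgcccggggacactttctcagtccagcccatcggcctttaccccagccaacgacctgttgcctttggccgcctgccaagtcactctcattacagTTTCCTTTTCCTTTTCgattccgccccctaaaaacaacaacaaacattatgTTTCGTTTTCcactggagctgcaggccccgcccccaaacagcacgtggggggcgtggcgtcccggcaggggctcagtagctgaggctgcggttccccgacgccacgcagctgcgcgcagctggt
OAS3 (chr12:112938224-112938523, + strand): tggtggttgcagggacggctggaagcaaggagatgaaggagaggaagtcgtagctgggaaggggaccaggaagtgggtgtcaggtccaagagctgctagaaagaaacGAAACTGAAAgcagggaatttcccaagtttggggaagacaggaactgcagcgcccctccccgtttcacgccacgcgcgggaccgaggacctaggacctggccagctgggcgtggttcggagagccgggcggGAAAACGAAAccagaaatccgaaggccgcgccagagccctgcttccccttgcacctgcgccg
ISG20 (chr15:88638766-88639065, + strand): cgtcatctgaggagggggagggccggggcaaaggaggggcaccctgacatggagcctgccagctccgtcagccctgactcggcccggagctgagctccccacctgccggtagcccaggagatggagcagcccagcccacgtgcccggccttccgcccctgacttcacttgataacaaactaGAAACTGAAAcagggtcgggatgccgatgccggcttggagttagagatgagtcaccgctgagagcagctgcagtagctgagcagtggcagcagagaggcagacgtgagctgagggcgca
The capitals in HERC5 and the first run in IFI27 are matches on the opposite strand, which read as TTTC, any 2 bases and TTTC. The match in MX1 began at base 12 after the start, and that in ISG20 at base -69. A match describes letters and is not shown to be bound in these cells.

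**Figure D1:**
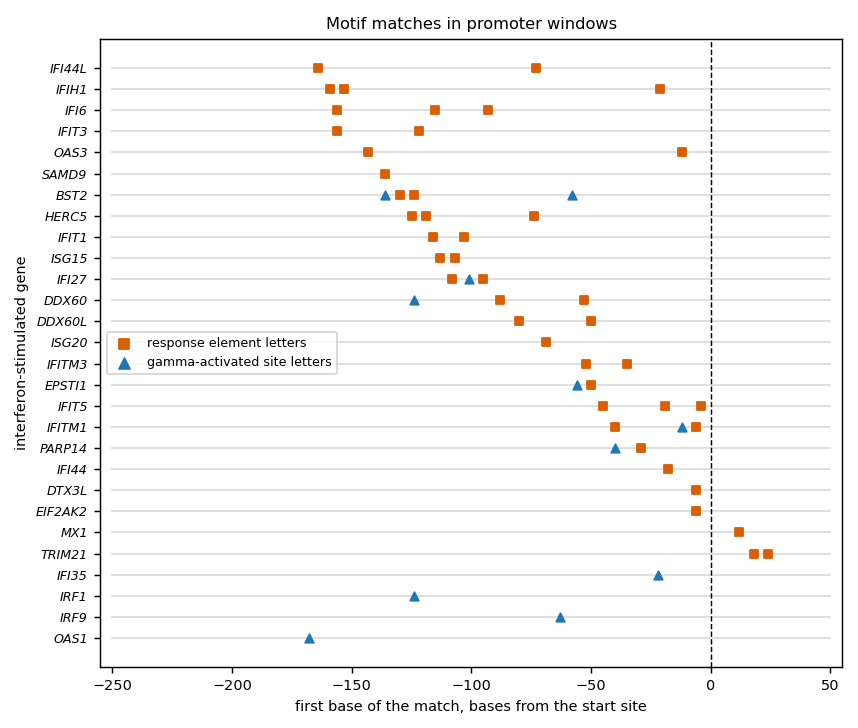
Positions of the response element letters (squares) and the gamma-activated site letters (triangles) in the promoter windows of the 28 interferon-stimulated genes with at least 1 match. The horizontal axis gives the first base of each match in bases from the start site (dashed line), and 41 of the 44 squares lie before it.

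The 43 tested genes were not at 1 common level across the groups. In 24 of them the highest group mean was that of 6CD2m cells, and in 16 of these all 3 libraries of 6CD2m lay above the 12 others. Of all 19535 genes tested, 23.4% were highest in 6CD2m cells and 9.2% were above all other libraries there. The lowest mean was found in 6CD1m cells for 15 genes, beside 19.5% of all genes, and in none of the 15 were all libraries below the rest, beside 2.07%. It was found in 8CDm cells for 12 genes (27.9%), near the 22.6% of all genes, and in 9 of these all 8CDm libraries were below the rest, beside 6.66%. The summed level of the 47 genes was 1600 to 1670 CPM in the 3 libraries of 6CD2m, 1390 to 1410 CPM in 8CDm, 1260 to 1440 CPM in WT on Tubastatin A, 1070 to 1340 CPM in WT on PCI-34051 and 1010 to 1300 CPM in 6CD1m. The sum is carried by a few long or abundant transcripts such as ADAR, IFITM3 and PARP14. Levels measured on pooled RNA do not tell a change in every cell from a change in a share of the cells.

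**Figure D2:**
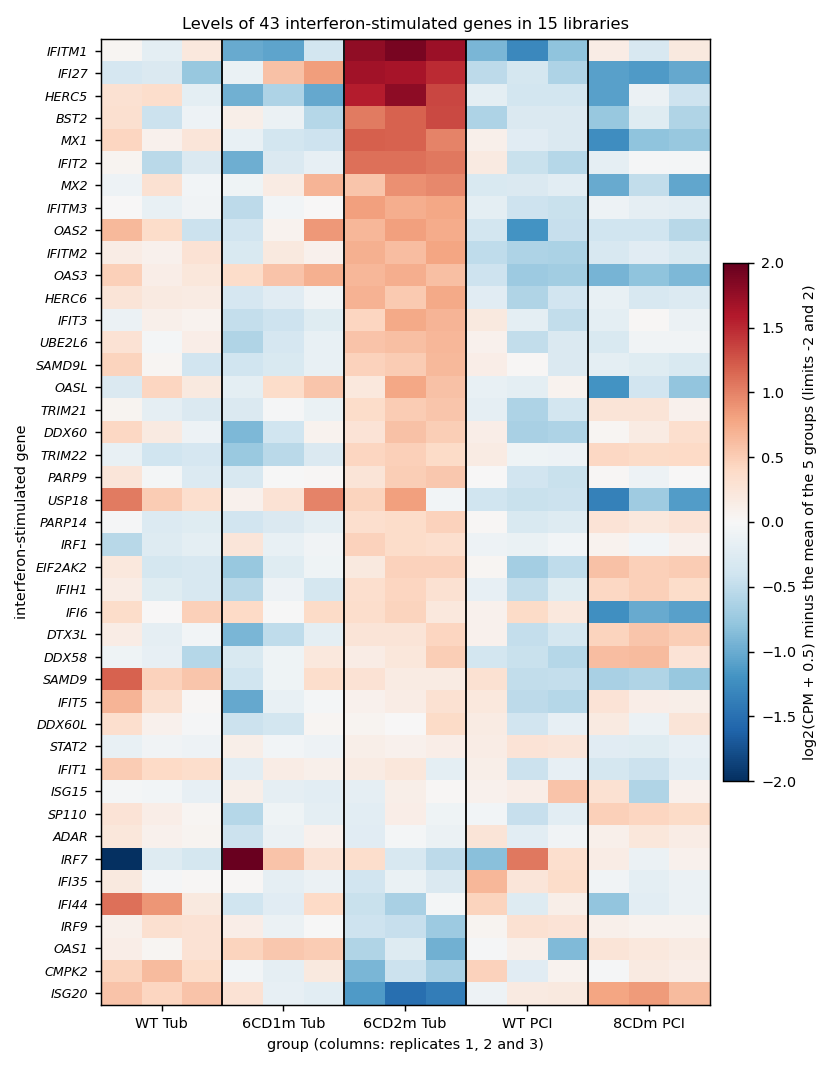
Heat map of the 43 tested interferon-stimulated genes (rows) in the 15 libraries (columns, replicates 1 to 3 of each group). Colour gives log2(CPM + 0.5) minus the mean of the 5 group means, with limits of -2 and 2, and rows are ordered by 6CD2m relative to the other groups. The 6CD2m columns are the reddest for IFITM1, IFI27 and HERC5 at the top and the bluest for ISG20 at the bottom.

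Genes were called at the adjusted p of 0.001 that the study uses (edgeR's quasi-likelihood test, adjusted over all 19535 genes), and the share called among all genes stands beside each count. Comparisons that share a group share its libraries and are not independent. Between 6CD2m cells and WT cells, both on Tubastatin A, 8 of 43 genes were higher in 6CD2m cells (IFI27, IFITM1, IFIT2, MX1, IFITM3, TRIM22, IRF1 and PARP14), beside 4.61% of all genes. In the same comparison 2 were lower (ISG20 and IRF9), beside 7.22% of all genes. The median log2 difference was 0.49 over the 43 genes and -0.01 over all genes. IFI27, IFITM1 and ISG20 were called in each of 13 alternative analyses. The count of 10 fell to 5 without 6CD2m replicate 1 or 3 or WT replicate 2 or 3, and to 6 without 6CD2m replicate 2. IFIT2, MX1, PARP14 and TRIM22 lost their calls in each of these 5 fits (adjusted p up to 0.0061), IRF1 lost its call without 6CD2m replicate 1, and IRF9 without 6CD2m replicate 3 or WT replicate 2 or 3.

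Between 6CD1m cells and WT cells on Tubastatin A none of the 43 genes was called by edgeR, beside 0.271% of all genes higher and 0.522% lower in 6CD1m cells. At an unadjusted p of 0.05, 4 were higher and 13 lower, and DESeq2 called 0. The median log2 difference was -0.22, beside -0.01 over all genes. The direct comparison of the KDAC6 mutants, in which inhibitor, dose and time were the same, gave 12 genes lower in 6CD1m cells (HERC5, IFITM1, IFIT2, MX1, IFI27, IFIT3, UBE2L6, IFITM3, TRIM22, HERC6, IFITM2 and PARP14), beside 6.65% of all genes. ISG20 was the only one of the 43 that was higher in 6CD1m cells, beside 6.54% of all genes. The median log2 difference was -0.54 over the 43 genes and 0.05 over all genes. The count of 13 was 7 without 6CD2m replicate 3 and 5 when only the libraries compared were fitted, and HERC5, IFITM1, MX1 and TRIM22 were called in each of 13 alternatives.

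Between 8CDm cells and WT cells on PCI-34051, 1 gene was higher in 8CDm cells (DDX58), beside 4.69% of all genes, and 2 were lower (IFI6 and STAT2), beside 6.27%. The median log2 difference was 0.14, beside -0.04 over all genes. IFI6 kept its call in 12 of 13 alternatives, DDX58 in 5 and STAT2 in 3. The count of 3 was 1 without 8CDm replicate 1 or 2 or WT replicate 2 or 3, and 6 without WT replicate 1. It was 12 with DESeq2, 8 with GC offsets and 0 when only the libraries compared were fitted. Between the mutants 6CD2m and 8CDm, which differ in line and inhibitor, 10 genes were higher in 6CD2m cells (IFI27, HERC5, MX1, IFI6, MX2, IFITM1, OAS3, IFITM2, IFITM3 and HERC6), beside 5.6% of all genes, and ISG20 was lower, beside 4.37%. This count of 11 was 20 with DESeq2 or GC offsets and 23 when only the libraries compared were fitted. Between 6CD1m and 8CDm cells, 4 were higher in 6CD1m cells (USP18, IFI6, IFI27 and OAS3), beside 5.99%, and 4 were lower (DTX3L, TRIM22, ISG20 and PARP14), beside 5.07%. That count of 8 was 4 without 6CD1m replicate 2 or any 8CDm library and 5 without 6CD1m replicate 3, and OAS3 and TRIM22 were called in each of 13 alternatives.

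Between WT cells on the 2 inhibitors, OAS3 alone was higher on Tubastatin A, beside 0.333% of all genes. None was lower by edgeR, beside 0.087% of all genes, with 3 lower at an unadjusted p of 0.05 and 1 by DESeq2. The replicate numbers paired these libraries, and with the replicate as a block the count was 0, with OAS3 no longer called. It was also 0 without any 1 of the WT libraries on Tubastatin A or without WT replicate 2 or 3 on PCI-34051. Of the 43 genes 36 were above 0 on Tubastatin A (83.7%), beside 50.7% of all genes, with a median log2 difference of 0.28 beside 0.01. Over all tested genes the log2 difference between the WT groups fell with GC content (Spearman's rho -0.41). Other comparisons had such trends too, with rho of -0.4 for 8CDm against WT. For 6CD1m rho was 0.29 against WT, 0.28 against 6CD2m and 0.31 against 8CDm. For 6CD2m it was -0.1 against WT and 0.03 against 8CDm. The part of GC content in the 36 genes above 0 between the WT groups was not tested. The signed log2 difference of 6CD2m cells from their WT counterpart minus that of 8CDm cells from theirs was above 0 for 3 called genes (IFI27, MX1 and STAT2), beside 2.51% of all genes, and below 0 for ISG20, beside 2.65%. For ISG20 the differences were -1.97 in 6CD2m and 0.69 in 8CDm cells, and for STAT2 they were 0.22 and -0.44. IFI27, MX1 and ISG20 were called in each of 19 alternatives and STAT2 in 6 (adjusted p up to 0.0032).

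**Figure D3:**
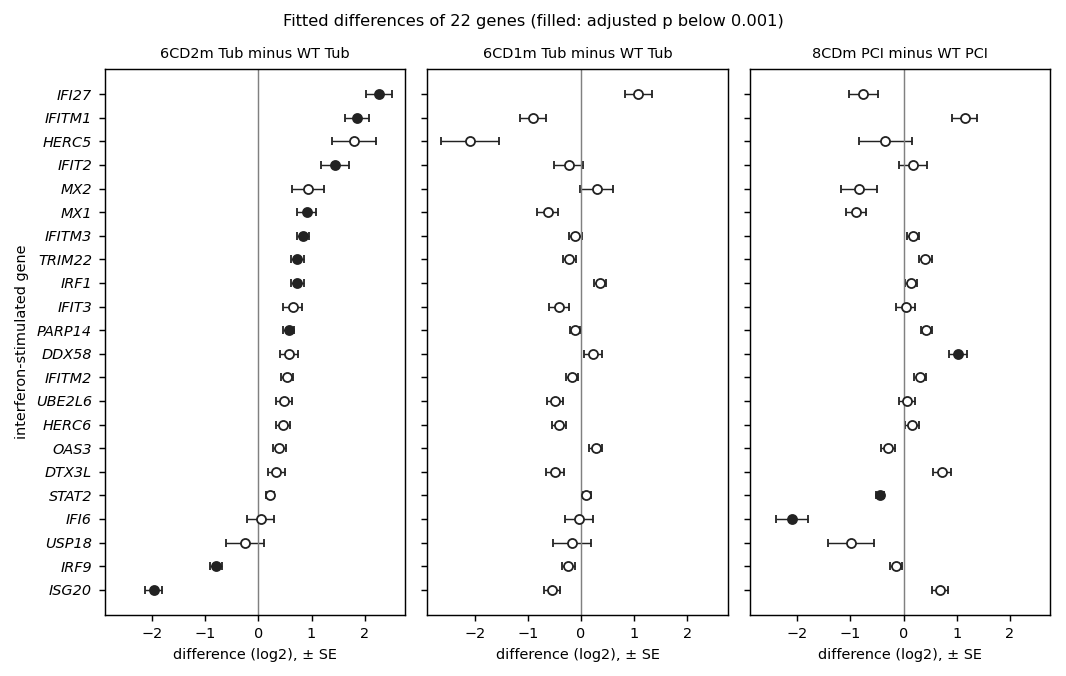
Fitted log2 differences with SE between each mutant and WT cells on the same inhibitor, for the 22 interferon-stimulated genes called between at least 1 pair of groups. Filled points have an adjusted p below 0.001. There are 10 filled points for 6CD2m cells, 0 for 6CD1m cells and 3 for 8CDm cells.

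IFI27 and IFI6 encode small hydrophobic proteins of the same family, found at mitochondria and the endoplasmic reticulum. IFI27 (chromosome 14, 94104836 to 94116698) was at 11.8, 11.6 and 10.3 CPM in 6CD2m cells and at 3.03, 5.26 and 6.41 CPM in 6CD1m cells. In WT cells it was at 2.54, 2.66 and 1.79 CPM on Tubastatin A and at 2.19, 2.53 and 2.0 CPM on PCI-34051, and in 8CDm cells at 1.31, 1.25 and 1.4 CPM. The 6CD2m libraries lay above and the 8CDm libraries below all others, with 6CD1m in between. The difference from WT cells on Tubastatin A was 2.27 ± 0.24 (log2, SE) in 6CD2m cells, 4.82-fold higher (edgeR adjusted p = 4.2e-06), and 1.08 ± 0.25 in 6CD1m cells (edgeR adjusted p = 0.016). The log2 difference of 6CD1m from 6CD2m cells was -1.19 ± 0.23 (edgeR adjusted p = 0.00089), a call kept in 5 of 13 alternatives and lost without 6CD1m replicate 1 or 2 or any 6CD2m library, with adjusted p up to 0.005.

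IFI6 moved in another group. It was at 0.342, 0.488 and 0.43 CPM in 8CDm cells, which is 6, 9 and 8 reads, and at 1.6, 2.09 and 1.8 CPM in WT cells on PCI-34051. The other groups held 2.05, 1.49 and 2.25 CPM (WT on Tubastatin A), 2.1, 1.47 and 2.09 CPM (6CD1m) and 2.01, 2.18 and 1.78 CPM (6CD2m). Every 8CDm library was below the other 12, and the 4 other groups overlapped. IFI6 was 4.29-fold lower in 8CDm cells than in WT cells on PCI-34051 (log2 difference -2.1 ± 0.3, edgeR adjusted p = 9.3e-05), whereas in 6CD2m cells it differed from WT by 0.04 ± 0.26. IFI35 and IFI44, which are named in the same series but are not related to IFI6, were not called between any pair, at 6.81 to 14.6 CPM and 0.456 to 3.04 CPM.

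The IFITM proteins sit in membranes and restrict the fusion of enveloped viruses. IFITM1 (chromosome 11, 313506 to 315272) was at 18.5, 20.2 and 17.7 CPM in 6CD2m cells and at 2.27, 2.18 and 3.83 CPM in 6CD1m cells. WT cells held 5.25, 4.34 and 5.95 CPM on Tubastatin A and 2.45, 1.77 and 2.7 CPM on PCI-34051, and 8CDm cells held 5.64, 3.95 and 5.85 CPM. The 6CD2m libraries stood far above every other library, and 6CD1m libraries lay below those of WT cells on the same inhibitor. IFITM1 was 3.62-fold higher in 6CD2m than in WT cells (log2 1.86 ± 0.22, edgeR adjusted p = 1.1e-05) and 6.76-fold higher than in 6CD1m cells (edgeR adjusted p = 5.2e-07). In 8CDm cells it was 1.15 ± 0.24 above WT cells on the log2 scale (edgeR adjusted p = 0.0017), which missed the threshold.

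IFITM3 was the most abundant of the 47 genes per length, at a mean of 549 TPM (a share of all transcripts per length) in 6CD2m cells and 207 to 281 TPM elsewhere. It was at 284, 267 and 276 CPM in 6CD2m cells, 112, 155 and 162 CPM in 6CD1m cells, and between 140.0 and 150.0 CPM in the 3 libraries of 8CDm. WT cells held 162, 146 and 154 CPM on Tubastatin A and 141, 121 and 119 CPM on PCI-34051. Only 6CD2m cells stood apart, 1.79-fold above WT (log2 0.84 ± 0.12, edgeR adjusted p = 6.4e-05) and 1.93-fold above 6CD1m (edgeR adjusted p = 2.3e-05). IFITM2 was also highest in 6CD2m cells, with 93.7, 87.5 and 99.1 CPM in 6CD2m cells, 63.2, 60.3 and 69.4 CPM in WT cells on Tubastatin A, 45.9, 65.3 and 60.7 CPM in 6CD1m cells, 45.3, 48.7 and 46.0 CPM in 8CDm cells and 39.7, 36.9 and 36.4 CPM in WT cells on PCI-34051. Its difference between 6CD2m and WT cells was 0.54 ± 0.11 on the log2 scale (edgeR adjusted p = 0.0019) and missed the threshold, and it was 1.63-fold higher in 6CD2m than in 6CD1m cells (edgeR adjusted p = 0.00023, and not called without 6CD2m replicate 1 or 3). The annotated ends of IFITM1 and IFITM2 coincide and the 3 genes are close paralogs, so estimated counts may be shared among them.

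Several of the IFIT proteins bind viral RNA. The family is encoded side by side on chromosome 10, yet its genes differed. IFIT2 was at 9.12, 9.07 and 8.84 CPM in 6CD2m cells, 1.77, 3.16 and 3.49 CPM in 6CD1m cells and 3.47, 3.9 and 3.87 CPM in 8CDm cells. WT cells held 4.15, 2.59 and 3.18 CPM on Tubastatin A and 4.59, 2.78 and 2.51 CPM on PCI-34051. All 6CD2m libraries were above the rest, and the other groups overlapped. IFIT2 was 2.71-fold higher in 6CD2m than in WT cells (log2 1.44 ± 0.26, edgeR adjusted p = 0.00052) and 3.18-fold higher than in 6CD1m cells (edgeR adjusted p = 0.00019, up to 0.0011 without 6CD2m replicate 2 or 3).

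IFIT3 was at 9.41, 12.0 and 11.3 CPM in 6CD2m cells, 4.8, 5.05 and 5.72 CPM in 6CD1m cells, 5.92, 7.04 and 6.34 CPM in 8CDm cells, 6.3, 7.39 and 7.22 CPM in WT cells on Tubastatin A and 8.0, 5.94 and 4.77 CPM in WT cells on PCI-34051. It was 2.1-fold higher in 6CD2m than in 6CD1m cells (log2 difference of 6CD1m from 6CD2m -1.07 ± 0.18, edgeR adjusted p = 0.00036), a call kept in 6 of 13 alternatives and lost without 6CD1m replicate 1 or 2 or 6CD2m replicate 2 or 3, with adjusted p up to 0.0026. Its difference from WT cells, 0.65 ± 0.18 on the log2 scale, missed the threshold (edgeR adjusted p = 0.011). IFIT1 and IFIT5 were not called between any pair. IFIT1 lay between 1.95 and 4.2 CPM and was highest in WT cells on Tubastatin A, and IFIT5 lay between 10.4 and 35.2 CPM with a wide spread within groups. The promoter windows of IFIT1, IFIT3 and IFIT5 each held at least 2 matches to the response element letters.

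MX1 and MX2 are dynamin-like GTPases that trap viral components, and lie next to each other on chromosome 21. MX1 was at 13.7, 13.5 and 11.8 CPM in 6CD2m cells, 5.05, 4.28 and 4.11 CPM in 6CD1m cells and 2.11, 3.03 and 3.17 CPM in 8CDm cells. WT cells held 7.85, 6.03 and 6.82 CPM on Tubastatin A and 6.13, 4.8 and 4.57 CPM on PCI-34051. All libraries of 6CD2m were above and all of 8CDm below the other 9. MX1 was 1.88-fold higher in 6CD2m than in WT cells (log2 0.91 ± 0.18, edgeR adjusted p = 0.00096, kept in 6 of 13 alternatives and lost without any 1 of these 6 libraries, with adjusted p up to 0.0061). It was 2.9-fold higher than in 6CD1m cells (edgeR adjusted p = 1.5e-05) and 4.68-fold higher than in 8CDm cells (edgeR adjusted p = 3.8e-07).

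MX2 was lower, at 2.66, 3.55 and 3.67 CPM in 6CD2m cells, 1.52, 1.9 and 2.93 CPM in 6CD1m cells, 1.49, 2.14 and 1.56 CPM and 1.23, 1.26 and 1.35 CPM in WT cells on Tubastatin A and PCI-34051, and 0.57, 1.03 and 0.537 CPM in 8CDm cells. The 8CDm libraries, with 10 to 19 reads, were below all others, and those of 6CD2m and 6CD1m overlapped. It was called between 6CD2m and 8CDm cells only (4.59-fold, log2 2.2 ± 0.32, edgeR adjusted p = 0.00011), and lost that call without 8CDm replicate 1 or 3 (adjusted p up to 0.0013).

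The oligoadenylate synthetases make the messenger that activates RNase L. OAS3 (chromosome 12, 112938352 to 112973249) was the member of this family whose levels split the libraries by inhibitor. It was at 47.1, 49.4 and 45.3 CPM in 6CD2m cells, 38.3, 44.4 and 48.6 CPM in 6CD1m cells and 41.4, 32.4 and 34.7 CPM in WT cells, all on Tubastatin A. On PCI-34051 it was at 22.2, 17.8 and 18.2 CPM in WT cells and 15.3, 16.7 and 15.7 CPM in 8CDm cells. The 9 libraries on Tubastatin A lay above the 6 on PCI-34051 without overlap. Among the mutants the line changed with the inhibitor, so their parts cannot be told apart. OAS3 was 1.86-fold higher on Tubastatin A in WT cells (log2 0.9 ± 0.12, edgeR adjusted p = 0.00074), but with the replicate numbers as a block this was no longer called, and over all alternatives the adjusted p reached 0.032. Between 6CD2m and 8CDm cells the log2 difference was 1.57 ± 0.12 (edgeR adjusted p = 1.9e-07), and between 6CD1m and 8CDm cells 1.46 ± 0.12 (edgeR adjusted p = 5.9e-07). OAS1, OAS2 and OASL were not called between any pair, at 1.5 to 5.12, 0.506 to 3.69 and 0.0 to 1.47 CPM. OAS1 had its highest mean in 6CD1m cells (4.98 ± 0.166 CPM, SD, n = 3) and its lowest in 6CD2m cells (2.1 ± 0.618 CPM, SD, n = 3), unlike OAS2 and OASL, whose highest mean was in 6CD2m cells.

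ISG15 is joined to proteins by the enzyme UBE2L6 and the ligase HERC5, and removed by USP18, which also restrains the receptor. ISG15 itself was low, at 1.95 to 5.02 CPM, and was not called between any pair. UBE2L6 had means of 49.6 ± 1.57 CPM in 6CD2m, 35.4 ± 3.96 CPM in WT on Tubastatin A, 29.0 ± 2.73 CPM in 8CDm, 27.7 ± 5.9 CPM in WT on PCI-34051 and 25.1 ± 4.01 CPM in 6CD1m cells (SD, n = 3 in each). It was 1.97-fold higher in 6CD2m than in 6CD1m cells (edgeR adjusted p = 0.00014), and the adjusted p was 0.0011 without 6CD2m replicate 3.

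HERC5 was at 3.37, 4.0 and 2.78 CPM in 6CD2m cells, 1.11, 1.17 and 0.635 CPM in WT cells on Tubastatin A, 0.64, 0.506 and 0.515 CPM in WT cells on PCI-34051, 0.114, 0.704 and 0.483 CPM in 8CDm cells and 0.168, 0.351 and 0.139 CPM in 6CD1m cells. The 6CD2m libraries were above all others, and the 6CD1m libraries held only 2, 5 and 2 reads. The log2 difference of 6CD1m from 6CD2m was -3.89 ± 0.51 (edgeR adjusted p = 3.5e-05), the largest of the 43 genes between these lines, and its size depends on those few reads. Between 6CD2m and WT cells it was 1.8 ± 0.41 (edgeR adjusted p = 0.0034), which missed the threshold. The call between 6CD2m and 8CDm cells was lost without 6CD2m replicate 2 or 8CDm replicate 3 (adjusted p up to 0.0012).

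HERC6, a neighbour and paralog of HERC5 on chromosome 4, was at 19.4, 17.2 and 20.4 CPM in 6CD2m cells, 14.3, 13.5 and 13.3 CPM in WT cells on Tubastatin A, 10.1, 7.65 and 8.95 CPM in WT cells on PCI-34051, 10.7, 9.37 and 9.77 CPM in 8CDm cells and 9.26, 10.1 and 11.3 CPM in 6CD1m cells. Like HERC5 it was highest in 6CD2m cells and next in WT cells on Tubastatin A, and the other 3 groups stood in another order than for HERC5. It was 1.86-fold higher in 6CD2m than in 6CD1m cells (edgeR adjusted p = 8.3e-05). USP18 was at 3.92, 2.53 and 2.2 CPM in WT cells on Tubastatin A, 1.77, 2.11 and 3.76 CPM in 6CD1m cells, 2.43, 3.29 and 1.56 CPM in 6CD2m cells, 1.12, 1.07 and 1.09 CPM in WT cells on PCI-34051 and 0.342, 0.813 and 0.483 CPM in 8CDm cells. As for OAS3, all libraries on Tubastatin A were above all those on PCI-34051. USP18 was called between 6CD1m and 8CDm cells only (log2 2.21 ± 0.42, edgeR adjusted p = 0.00086), in 5 of 13 alternatives, and not without 6CD1m replicate 2 or 3 or any 8CDm library (adjusted p up to 0.0066).

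ISG20, a ribonuclease that degrades single-stranded RNA, ran against the genes above. ISG20 (chromosome 15, 88636153 to 88656483) was at 5.09, 3.8 and 4.17 CPM in 6CD2m cells and at 17.6, 15.9 and 17.6 CPM in WT cells on the same inhibitor. It was at 14.5, 10.4 and 10.1 CPM in 6CD1m cells, 10.9, 13.3 and 13.5 CPM in WT cells on PCI-34051 and 20.7, 21.6 and 18.4 CPM in 8CDm cells. The libraries of 6CD2m were the lowest and those of 8CDm the highest, without overlap with any other group. ISG20 was 3.91-fold lower in 6CD2m than in WT cells (log2 -1.97 ± 0.16, edgeR adjusted p = 3.5e-07), 2.67-fold lower than in 6CD1m cells (edgeR adjusted p = 1.2e-05) and 4.65-fold lower than in 8CDm cells (edgeR adjusted p = 8.4e-08). In 8CDm cells it was 0.69 ± 0.15 above WT on the log2 scale (edgeR adjusted p = 0.0026), short of the threshold. Its call between 6CD1m and 8CDm cells, at an edgeR adjusted p of 0.00098, was lost without 6CD1m replicate 2 or 3 or any 8CDm library (adjusted p up to 0.0066).

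**Figure D4:**
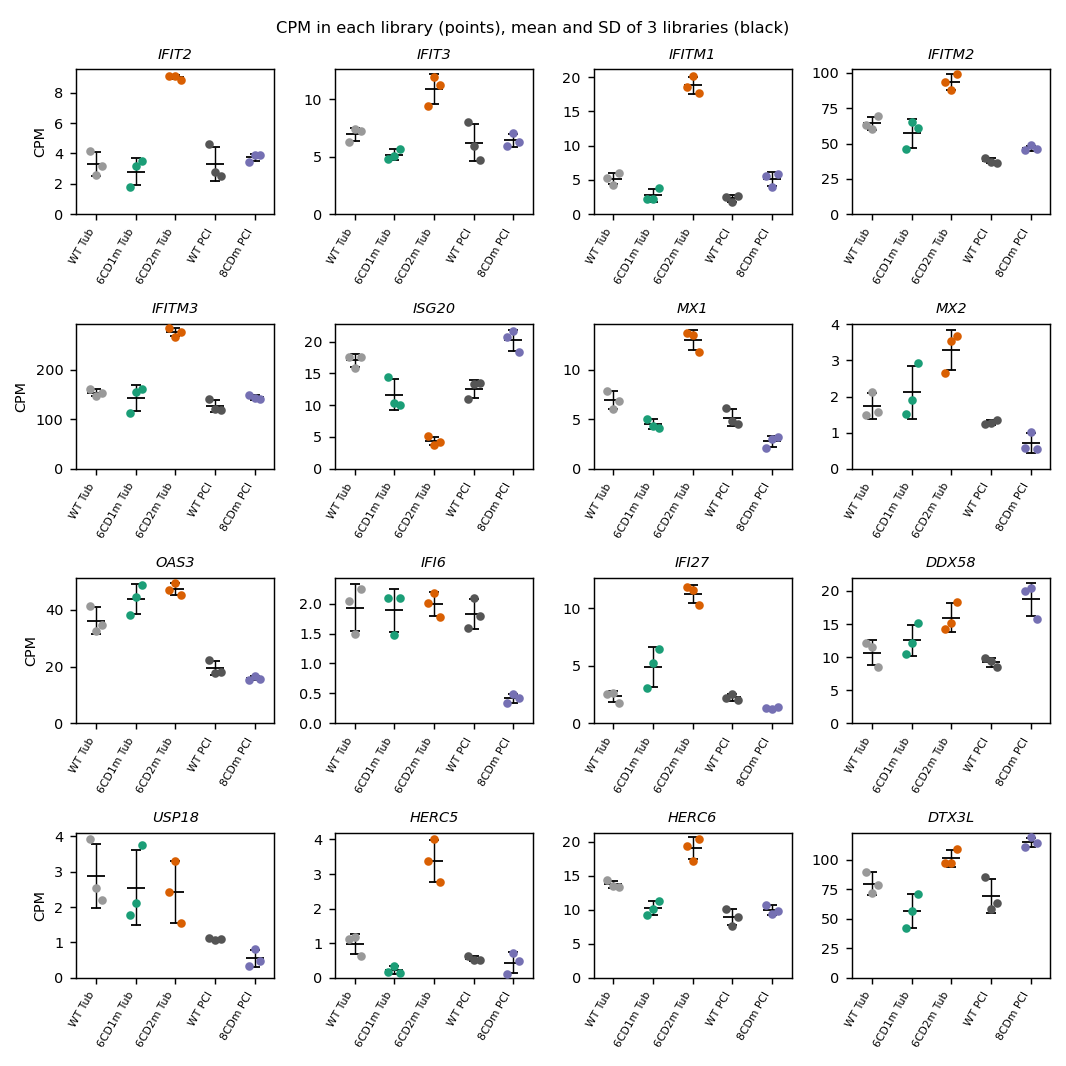
CPM in each library (points) with mean and SD of 3 libraries (black) for the 16 interferon-stimulated genes that were called between at least 1 pair of groups and whose group means spanned at least 1 on the log2 scale. All vertical axes start at 0 and differ between panels. The 6CD2m points are highest for IFITM1, IFI27, IFIT2 and HERC5 and lowest for ISG20, the 8CDm points are lowest for IFI6, and OAS3 separates the Tubastatin A groups from the PCI-34051 groups.

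Among the factors that carry the signal, STAT2, IRF9 and IRF1 were called and moved by less than 2-fold. STAT2, a subunit of ISGF3, had means of 96.2 ± 4.43 CPM in WT on PCI-34051, 89.0 ± 1.61 CPM in 6CD2m, 81.7 ± 6.94 CPM in 6CD1m, 76.2 ± 2.07 CPM in WT on Tubastatin A and 70.8 ± 2.07 CPM in 8CDm cells (SD, n = 3 in each). It was 1.36-fold lower in 8CDm than in WT cells on PCI-34051 (log2 -0.44 ± 0.08, edgeR adjusted p = 0.00062), a call lost without any 8CDm library or WT replicate 2 or 3 (adjusted p up to 0.0066). IRF9, the DNA-binding subunit of the same complex, had means of 17.1 ± 1.45 CPM in WT on Tubastatin A and 9.87 ± 1.14 CPM in 6CD2m cells, and 14.5 to 16.9 CPM in the other groups. It was 1.74-fold lower in 6CD2m than in WT cells (edgeR adjusted p = 0.00016), and not called without 6CD2m replicate 3 or WT replicate 2 or 3 (adjusted p up to 0.0015). IRF1, a factor that responds to interferon gamma, had means of 46.6 ± 2.23 CPM in 6CD2m and 28.1 ± 3.68 CPM in WT cells on Tubastatin A, 1.66-fold higher (edgeR adjusted p = 0.0002), and 33.1 to 36.4 CPM in the other groups. Without 6CD2m replicate 1 its adjusted p was 0.0013.

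IRF7 was not called between any pair and had a wide spread within groups. It was at 21.3, 7.79 and 6.34 CPM in 6CD1m cells and at 0.553, 4.15 and 3.87 CPM in WT cells on Tubastatin A. Its GC content, 67.0%, was the highest of the 47 genes, and its extreme libraries were 6CD1m replicate 1 and WT replicate 1, whose deviations followed GC content with rho of 0.49 and -0.39. The part of GC content in the spread of IRF7 was not tested.

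DDX58 and IFIH1 encode the RNA sensors RIG-I and MDA5. DDX58 was between 15.8 and 20.4 CPM in the 3 libraries of 8CDm and 9.87, 9.35 and 8.5 CPM in WT cells on PCI-34051, and at 12.1, 11.5 and 8.49 CPM in WT, 10.4, 12.1 and 15.1 CPM in 6CD1m and 14.3, 15.2 and 18.4 CPM in 6CD2m cells on Tubastatin A. The 8CDm libraries overlapped with those of 6CD2m but not with those of WT cells. DDX58 was 2.03-fold higher in 8CDm than in WT cells (log2 1.02 ± 0.17, edgeR adjusted p = 0.00037). The call was lost with GC offsets and without 8CDm replicate 1 or 2 or WT replicate 2 or 3 on PCI-34051 (adjusted p up to 0.006). IFIH1 had means of 11.3 ± 0.428 CPM in 8CDm and 10.9 ± 0.538 CPM in 6CD2m cells and 6.56 to 7.62 CPM in the other groups (SD, n = 3), and was not called between any pair.

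PARP9 and DTX3L form a complex that modifies ubiquitin and histones and are encoded head to head on chromosome 3, near PARP14, an ADP-ribosyltransferase. DTX3L was at 111, 119 and 114 CPM in 8CDm cells, 96.9, 97.2 and 109 CPM in 6CD2m cells, 89.9, 71.4 and 78.2 CPM in WT cells on Tubastatin A, 85.5, 58.2 and 63.4 CPM in WT cells on PCI-34051 and 42.5, 56.6 and 71.0 CPM in 6CD1m cells. The 8CDm libraries were above all others, and those of 6CD1m overlapped with WT cells on PCI-34051. It was 2.02-fold lower in 6CD1m than in 8CDm cells (log2 -1.01 ± 0.17, edgeR adjusted p = 0.00029), and not called without 6CD1m replicate 2 or any 8CDm library (adjusted p up to 0.0025). PARP14 had means of 157 ± 7.37 CPM in 6CD2m, 106 CPM in both WT groups (SD 9.84 on Tubastatin A and 13.7 on PCI-34051) and 97.8 ± 6.28 CPM in 6CD1m cells (n = 3 in each). In 8CDm cells it was 0.43 ± 0.1 above WT cells on the log2 scale (edgeR adjusted p = 0.004), short of the threshold. It was 1.48-fold higher in 6CD2m than in WT cells (edgeR adjusted p = 0.00045) and 1.6-fold higher than in 6CD1m cells (edgeR adjusted p = 0.0001, and not called without 6CD2m replicate 3). Its call between 6CD1m and 8CDm cells was kept in 3 of 13 alternatives and lost without any 1 of those 6 libraries or with GC offsets (adjusted p up to 0.0091). PARP9 lay between 13.3 and 26.7 CPM and was not called between any pair.

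TRIM22, a ubiquitin ligase that restricts viral transcription, had means of 65.2 ± 1.94 CPM in 6CD2m and 63.9 ± 0.931 CPM in 8CDm cells, 48.2 ± 5.39 CPM and 39.3 ± 3.87 CPM in WT cells on PCI-34051 and Tubastatin A and 33.7 ± 5.41 CPM in 6CD1m cells (SD, n = 3 in each). It was 1.66-fold higher in 6CD2m than in WT cells (edgeR adjusted p = 0.00019). It was 1.93-fold lower in 6CD1m than in 6CD2m cells (edgeR adjusted p = 2e-05) and 1.89-fold lower than in 8CDm cells (edgeR adjusted p = 2.8e-05). The related TRIM21, an intracellular antibody receptor, lay between 12.8 and 29.5 CPM, highest in 6CD2m cells and not called between any pair.

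The remaining tested genes were not called between any pair. ADAR, the RNA-editing enzyme, lay between 253 and 407 CPM and its group means spanned 0.31 on the log2 scale. EIF2AK2, the kinase PKR, lay between 40.8 and 105 CPM and was highest in 8CDm and 6CD2m cells. DDX60 (7.49 to 21.9 CPM), DDX60L (8.08 to 14.6 CPM), SAMD9L (6.06 to 13.0 CPM) and SP110 (9.26 to 19.8 CPM) spanned 0.41 to 0.89 on the log2 scale, and SAMD9 (6.28 to 25.6 CPM) spanned 1.46. CMPK2 (0.474 to 2.33 CPM) and BST2, which tethers budding virions, were low. BST2 held 21, 28 and 29 reads in 6CD2m cells and at most 10 in any other library, so that its 6CD2m libraries were above all others without a call. The 4 genes not tested, IFI44L, RSAD2, XAF1 and EPSTI1, held at most 8 reads in any library. At this depth a difference among them was not detectable.

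Genes with the response element letters in their window and genes without were both among those that moved. Of 22 tested genes with a match 5 were higher and 1 lower in 6CD2m than in WT cells, with a median log2 difference of 0.45, and of 12 without a match 1 was higher and 1 lower, with a median of 0.01. Of all genes 4.61% were higher and 7.22% lower. Between 6CD1m and 6CD2m cells the medians were -0.7 and -0.18. The difference between the sets was not tested. ISG20 carries the same letters as IFI27, IFITM1 and MX1 and moved the other way.

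The pathway upstream was read from a list of 41 further genes, of which 29 were tested. Their calls are those of the edgeR fit. How they fared in the alternative analyses is not given here, apart from counts by DESeq2. Of 9 interferon genes IFNG, IFNL1, IFNL2 and IFNL3 had no read, IFNB1, IFNA1 and IFNA2 held at most 5 reads in any library and IFNK at most 9. IFNE, an epithelial type I interferon, was the only ligand tested. It was at 0.651, 0.608 and 1.39 CPM in 6CD2m cells and 3.43, 3.7 and 4.51 CPM in WT cells on Tubastatin A (log2 -2.13 ± 0.31, edgeR adjusted p = 9.6e-05). It was at 5.89, 4.28 and 4.81 CPM in 6CD1m cells, and in 8CDm cells, at 1.94, 1.25 and 1.34 CPM, it was lower than in WT cells on PCI-34051, at 3.89, 4.8 and 5.99 CPM (log2 -1.69 ± 0.29, edgeR adjusted p = 0.00046).

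Of the receptor chains, IL10RB was called between 6CD1m and 6CD2m cells (log2 -0.9 ± 0.18, edgeR adjusted p = 0.00095) and IFNAR1, IFNAR2, IFNGR1 and IFNGR2 between no pair. Of the kinases and STATs, STAT3 was lower in 6CD1m than in 6CD2m cells (log2 -0.64 ± 0.12, edgeR adjusted p = 0.00071) and than in 8CDm cells (log2 -0.69 ± 0.12, edgeR adjusted p = 0.0005).

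The list of nucleic acid sensors with their adaptors and kinases held most of the other calls. TLR3, an endosomal sensor of double-stranded RNA, was at 4.14, 7.09 and 5.51 CPM in 6CD2m cells and 1.6, 1.3 and 1.04 CPM in WT cells on Tubastatin A (log2 2.08 ± 0.31, edgeR adjusted p = 0.0001). It was at 2.68, 2.22 and 2.95 CPM in 8CDm cells and 0.96, 0.506 and 0.515 CPM in WT cells on PCI-34051 (log2 1.95 ± 0.34, edgeR adjusted p = 0.00047). In 6CD1m cells it was at 1.01, 1.9 and 1.81 CPM, which was not called against WT cells (log2 0.27 ± 0.33, edgeR adjusted p = 0.59) and was lower than in 6CD2m cells (log2 -1.81 ± 0.31, edgeR adjusted p = 0.00034). CGAS, the DNA sensor, held 9, 0 and 0 reads in 8CDm cells and 61, 64 and 50 reads in WT cells on PCI-34051 (log2 -4.34 ± 0.58, edgeR adjusted p = 4.9e-05), with 48 to 75 reads in each library on Tubastatin A. The size of that difference rests on the 9 reads of 1 library. STING1, which relays its signal, was at 14.9, 17.0 and 15.7 CPM in 8CDm cells and 33.7, 37.7 and 37.0 CPM in WT cells (log2 -1.19 ± 0.09, edgeR adjusted p = 2.3e-07). The kinase gene IKBKE was also lower in 8CDm cells (log2 -1.08 ± 0.12, edgeR adjusted p = 9.7e-06), and PIAS1, a SUMO ligase, was higher (log2 0.62 ± 0.12, edgeR adjusted p = 0.00076). MAVS, the adaptor of RIG-I and MDA5, was lower in 6CD2m than in 8CDm cells (log2 -0.74 ± 0.1, edgeR adjusted p = 4.1e-05).

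In all, 1 of the 29 genes was higher and 1 lower in 6CD2m than in WT cells, beside 4.61% and 7.22% of all genes. For this pair DESeq2 called 4 higher and 1 lower, and 9 were higher and 6 lower at an unadjusted p of 0.05. In 8CDm relative to WT cells 2 were higher and 4 lower, beside 4.69% and 6.27%. There DESeq2 called 3 higher and 7 lower, and 9 were higher and 10 lower at an unadjusted p of 0.05. Between 6CD1m and WT cells edgeR called 0 of 29, with 3 higher and 6 lower at an unadjusted p of 0.05 and 1 called by DESeq2. Between WT cells on the 2 inhibitors edgeR called 0, with 5 and 4 at an unadjusted p of 0.05 and 2 by DESeq2. The median log2 difference of the 29 genes was -0.09 in 6CD2m relative to WT cells, beside 0.49 for the interferon-stimulated genes.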

How the data were processed

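Total RNA depleted of ribosomal RNA was sequenced as paired reads from 15 libraries, 3 biological replicates in each of 5 groups. The authors deposited expected counts per gene, estimated with RSEM 1.3.3 after Trimmomatic 0.39 and Bowtie2 2.4.5 on GRCh38, per the submitters' processing notes, which also name DESeq2 1.38.2. Whether counting used strand is not given in the sources used here. An expected count divides reads that fit several genes, which affects paralogs and overlapping genes, and 21.8% of the values above 0 were not whole. The deposited counts were rounded to whole numbers and fitted with edgeR 4.0.16 (quasi-likelihood test, TMM scaling, filterByExpr) in R 4.3.3, with 1 mean per group and all 15 libraries sharing 1 estimate of the spread. Errors of log2 differences are SE from that fit. Adjusted p-values (Benjamini-Hochberg) cover all 19535 genes tested, and 0.001 was the threshold. The p-values measure the spread between replicates of a group. CPM are counts scaled to a common TMM library size, and TPM were computed from the counts and annotated exon lengths where levels of genes were compared.

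The deposited counts on genes summed to 10932455 to 19983710 per library, and 3 counts (called reads in the text) were taken as the floor. Replicates of a group correlated at 0.962 to 0.988 over 15 pairs and no pair differed by as little as sampling noise. Members and lists were chosen with earlier results of these data known. All 22 members called between any of 7 pairs of groups are named with levels, with values per library for the 16 whose group means spanned at least 1 on the log2 scale, and the rest by range. Replicate numbers were checked by the correlation of deviations from group means. They paired the libraries only between the WT groups (r of 0.505, 0.235 and 0.169). Alternatives were DESeq2 1.42.0, upper-quartile scaling, no filter on low counts, an adjusted p of 0.05, a fit of the libraries compared alone, the replicate block, GC offsets with and without that block, and leaving out each library. Promoter windows came from RefSeq (GRCh38.p14, the first listed window per gene) and gene positions from GENCODE 29 on GRCh38. Tables and figures were made with Python 3.11.15, pandas 2.3.3 and matplotlib 3.10.9. The result of 1 gene of the pathway list is not reported here.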

Additional observations from a re-analysis of the deposited data

Results flagged for a closer look

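For 4 interferon-stimulated genes the difference between mutant and WT cells was not the same in 6CD2m cells on Tubastatin A as in 8CDm cells on PCI-34051, by a test of the difference itself. The log2 value of 6CD2m minus that of 8CDm was 3.03 for IFI27 (edgeR adjusted p = 2.7e-05), -2.66 for ISG20 (edgeR adjusted p = 7e-07), 1.81 for MX1 (edgeR adjusted p = 0.00015) and 0.67 for STAT2 (edgeR adjusted p = 0.00063). Line and inhibitor differ together between these pairs and cannot be told apart. STAT2 kept its call in 6 of 19 alternatives.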

How the results depend on the processing

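No alternative turned the direction of a called gene among the 43. The number of the 43 genes called changed by over 1.5 times as follows, and the cause was not tested. At an adjusted p of 0.05 it was 26 for 6CD2m against WT, 6 for 6CD1m against WT, 16 for 8CDm against WT, 25 for 6CD1m against 6CD2m, 27 for 6CD2m against 8CDm, 18 for 6CD1m against 8CDm, 7 between WT groups and 15 for the difference of differences. With DESeq2 it was 12 for 8CDm against WT, 20 for 6CD2m against 8CDm and 5 between WT groups. With upper-quartile scaling it was 7 for the difference of differences. Without a filter it was 1 for 6CD1m against WT, 5 for 8CDm against WT and 2 between WT groups. A fit of the libraries compared alone gave 0 for 8CDm against WT, 5 for 6CD1m against 6CD2m, 23 for 6CD2m against 8CDm, 2 for 6CD1m against 8CDm and 0 between WT groups. GC offsets gave 8 for 8CDm against WT, 20 for 6CD2m against 8CDm and 3 between WT groups. With the replicate block the count was 1 for 8CDm against WT, 5 for 6CD1m against 8CDm and 0 between WT groups, where GC offsets with the block also gave 0. Outside the WT groups the libraries share only a number. Leaving out 1 library gave 5 to 9 for 6CD2m against WT, 0 to 0 for 6CD1m against WT, 1 to 6 for 8CDm against WT, 7 to 14 for 6CD1m against 6CD2m, 9 to 12 for 6CD2m against 8CDm, 4 to 7 for 6CD1m against 8CDm, 0 to 1 between WT groups and 3 to 4 for the difference of differences. Genes with few reads, such as HERC5, BST2 and IFI6, are limited by depth.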
